A study of Mus musculus with 9 samples.

Results

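The genes described here build cholesterol and fatty acids, together with the proteins that sense and carry sterols. They were chosen by name: 31 symbols were listed, 1 of which (Sc4mol) is an older symbol of Msmo1, so the list held 30 genes. A gene was measured by the probe sets that the platform annotation gives a single symbol, and the probe set with the highest mean over the 9 arrays stood for it. On these terms 28 of the 12393 genes on the array were members, 20 of the sterol branch and 8 of the fatty acid branch, while Acat2 and Insig1 were not analysed here. All 28 measured members lay above the filter on low values (a mean of at least 5.67 on the log2 scale, the median over probe sets), which 6700 genes passed.

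The cells were TAMH, a line of mouse hepatocytes that bears the name of transforming growth factor alpha, the growth factor overexpressed in the transgenic mice it was derived from. The labels give liver as the tissue and C57BL/6 as the strain, and they name no animal, passage or clone. Confluent cells received APAP (acetaminophen) at 2 mM, AMAP at 2 mM or control culture medium for 2, 6 or 24 h, in 2 dishes per treatment, and RNA from each of these 9 groups was hybridised to 1 Affymetrix Mouse 430A_2 array. AMAP is the regioisomer of acetaminophen whose hydroxyl group is in the meta rather than the para position, and the series title calls it less hepatotoxic. The design text describes the series as preliminary. Since no group has a second array, a difference at a single time is a difference between 2 arrays and carries no test.

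Cholesterol is made from acetyl-CoA through mevalonate, isoprenoid diphosphates, squalene and lanosterol, and fatty acids are made from the same cytosolic acetyl-CoA. In liver cells the genes of both branches are driven by the sterol regulatory element binding proteins, which Srebf2 and Srebf1 encode. When membranes of the endoplasmic reticulum hold enough sterol, the Insig proteins keep these factors in the membrane and transcription of the pathway is low, and when sterol is scarce the factors are cut free and move to the nucleus.

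Values are on the log2 scale for each probe set, where a difference of 1 is a doubling of the measured signal. A member was counted as higher or lower at 1.5-fold or more (0.585 log2), and such counts of members between arrays are set beside the percentage of the 6700 expressed genes counted the same way. All 10 measured hepatocyte markers were expressed, with mean levels from 8.23 to 13.06. So were 3 of 4 measured cholangiocyte markers, a list with mean levels from 4.31 to 9.35. Of the other lists, 0 of 6 macrophage, 0 of 7 stellate cell and fibroblast and 0 of 6 endothelial markers were expressed. The dap control transcript, a bacterial RNA added to the samples, set 3 arrays apart: its middle minus its 3′ probe set was -1.72 and -1.58 in APAP at 6 and 24 h and -1.95 in AMAP at 24 h, against -0.60 to -0.44 on the other 6 arrays. In bulk RNA a lower level per cell and fewer cells of a type cannot be told apart.

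APAP at 24 h against control and AMAP. At 24 h most genes of both branches measured lower in APAP than in the control and AMAP arrays of the same time. Against control, 15 of 20 sterol members and 6 of 8 fatty acid members lay below 0, where 38.6% of all expressed genes did. Of these, 8 sterol and 2 fatty acid members were at least 1.5-fold lower (9.67% of all expressed genes), and 1 sterol member, Tm7sf2, was at least 1.5-fold higher (13.3%). The median difference was -0.45 for the sterol branch and -0.38 for the fatty acid branch, beside 0.12 for all expressed genes. APAP at 24 h was below all 3 control arrays for 15 sterol and 6 fatty acid members (27.9% of all expressed genes), and it was the lowest of the 9 arrays for 10 and 3 of them (11.1%).

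The entry to the mevalonate pathway held the widest gap between the compounds. Hmgcs1, which joins acetyl-CoA units into HMG-CoA, measured 10.58, 11.23 and 9.91 in APAP at 2, 6 and 24 h, against 10.86, 10.97 and 11.44 in AMAP and 10.85, 10.91 and 11.15 in control. APAP at 24 h was the lowest of these 9 arrays and AMAP at 24 h the highest, with the 3 control arrays spread over 0.30. The APAP level at 24 h was 2.36-fold below control (a difference of -1.24) and 2.87-fold below AMAP (-1.52).

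The next enzymes of that stretch lay in the same order at 24 h with smaller gaps. Fdps, which builds farnesyl diphosphate, measured 11.13, 11.59 and 10.55 in APAP at 2, 6 and 24 h, against 11.07, 11.11 and 11.57 in AMAP and 11.23, 11.38 and 11.05 in control. Its APAP array at 24 h was the lowest of the 9, 1.41-fold below control, while AMAP was 1.43-fold above control. Mvd, the mevalonate diphosphate decarboxylase, measured 6.58 in APAP, 7.42 in AMAP and 6.76 in control, so that APAP and control were close and AMAP was the high array. Pmvk, the phosphomevalonate kinase, had 7.05 in APAP, 7.54 in AMAP and 7.36 in control. Mvk, the mevalonate kinase, went against this order, with 7.46 in APAP, 7.46 in AMAP and 7.15 in control, and the 2 treated arrays were level. Idi1, the isopentenyl diphosphate isomerase, measured 9.38 in APAP, 9.55 in AMAP and 9.78 in control, with both treated arrays below control.

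The enzymes that make and close squalene were lower in APAP at 24 h without exception. On the probe sets used, 2 of the 3 were lower in AMAP too. Fdft1, the squalene synthase, measured 9.97, 9.34 and 8.99 in APAP at 2, 6 and 24 h, against 9.66, 9.95 and 9.15 in AMAP and 9.99, 9.95 and 9.92 in control. The control arrays spanned 0.07, and both treated arrays at 24 h lay below them, by -0.92 in APAP and -0.77 in AMAP. Lss, which closes the sterol rings to lanosterol, measured 9.59, 9.04 and 8.91 in APAP at 2, 6 and 24 h, against 9.77, 9.48 and 9.08 in AMAP and 9.91, 9.98 and 9.75 in control. On this probe set all 6 treated arrays of Lss were below their control array of the same time. The gap at 24 h was -0.84 in APAP and -0.67 in AMAP. On these probe sets Fdft1 and Lss were lower on the 3 arrays that the dap control set apart than on any other array. The part of this was not tested. The further expressed probe set of Lss gave -0.565 in APAP and 0.21 in AMAP at 24 h, and 0.75 in AMAP at 6 h. That of Fdft1 gave -0.63 in APAP and -0.16 in AMAP at 24 h. Sqle, the squalene epoxidase, separated the compounds at 24 h, with 10.29 in APAP, 11.09 in AMAP and 10.99 in control, a difference of -0.81 between APAP and AMAP.

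Among the enzymes that turn lanosterol into cholesterol, the difference between APAP and control at 24 h ran from -1.47 for Sc5d to 1.05 for Tm7sf2. Sc5d, a sterol desaturase near the end of the pathway, measured 10.29, 10.33 and 9.24 in APAP at 2, 6 and 24 h, against 10.46, 10.45 and 10.21 in AMAP and 10.36, 10.47 and 10.71 in control. Its APAP array at 24 h stood alone: the other 8 arrays lay between 10.21 and 10.71, and APAP at 24 h was 2.77-fold below control. Msmo1, a methylsterol oxidase, measured 10.90, 10.56 and 10.19 in APAP at 2, 6 and 24 h, against 10.99, 11.10 and 11.06 in AMAP and 11.09, 11.16 and 11.14 in control. The 3 control and 3 AMAP arrays of Msmo1 together covered 10.99 to 11.16, and each APAP array was lower than all 6 of them, most at 24 h (-0.95 against control). Cyp51, the lanosterol demethylase, measured 9.83, 8.86 and 9.15 in APAP at 2, 6 and 24 h, against 9.87, 9.87 and 9.82 in AMAP and 10.04, 9.99 and 9.98 in control, and here the 2 low arrays were APAP at 6 and at 24 h.

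Tm7sf2, a sterol reductase of the same stretch, ran the opposite way. It measured 8.56, 9.39 and 9.65 in APAP at 2, 6 and 24 h, against 8.69, 8.47 and 9.16 in AMAP and 9.32, 8.77 and 8.60 in control. At 24 h both treated arrays were above control, by 1.05 in APAP (2.06-fold) and 0.56 in AMAP, and at 2 h both were below it, by -0.76 and -0.64. Its control arrays spanned 0.72, the widest control range of the 28 members. Hsd17b7, which reduces a sterol ketone, measured 7.77 in APAP, 8.77 in AMAP and 8.13 in control at 24 h, and Nsdhl, a sterol dehydrogenase, 10.09 in APAP, 10.68 in AMAP and 10.32 in control: in both genes AMAP was above control and APAP below. Ebp, a sterol isomerase, measured 11.02 in APAP, 11.18 in AMAP and 10.85 in control, and Dhcr7, the reductase of the last step, 9.07 in APAP, 9.34 in AMAP and 9.07 in control, so that APAP was not below control in either gene.

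The sterol sensing and transport genes did not share a direction at 24 h. Srebf2, the transcription factor of the sterol branch, measured 9.11 in APAP, 9.55 in AMAP and 9.62 in control, a difference of -0.51 in APAP against control. Its further probe set did not show this gap, at 0.019 for APAP against control and 0.083 for APAP against AMAP. Stard4, a cytosolic carrier of cholesterol, measured 8.65 in APAP, 8.81 in AMAP and 9.55 in control, and both treated arrays lay below control. Insig2, which holds the factors in the membrane, had 8.44 in APAP, 8.40 in AMAP and 8.42 in control, values within 0.05 of each other.

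In the fatty acid branch the chain-building enzymes, Acly and Scd2 measured lower in APAP at 24 h than in control and AMAP. Elovl6, an elongase, measured 9.38, 9.44 and 8.72 in APAP at 2, 6 and 24 h, against 9.19, 9.38 and 9.57 in AMAP and 9.38, 9.44 and 9.48 in control. Its APAP array at 24 h lay 1.70-fold below control and was the lowest of the 9, whose other 8 covered 9.19 to 9.57. Acaca, the acetyl-CoA carboxylase of the committed step, measured 5.54 in APAP, 6.34 in AMAP and 6.21 in control at 24 h, low values close to the filter. Its mean of 5.76 passed the filter of 5.67, with AMAP and control at 24 h as its highest arrays. Each of its APAP arrays lay below the filter (5.57, 5.40 and 5.54 at 2, 6 and 24 h). It is nonetheless among the members counted as at least 1.5-fold lower in APAP than in control and AMAP at 24 h. Fasn, the fatty acid synthase, measured 9.70 in APAP, 10.21 in AMAP and 10.11 in control, and Acly, which makes cytosolic acetyl-CoA from citrate, 10.42 in APAP, 11.09 in AMAP and 10.78 in control. Scd2, a stearoyl-CoA desaturase, measured 11.75 in APAP, 12.18 in AMAP and 12.16 in control, a difference of -0.40 in APAP against control. On the probe sets used, the order in each of these 5 genes was AMAP, control, APAP from high to low. Further expressed probe sets did not all keep it. AMAP lay below control in one of Acly (-0.89), that of Elovl6 (-0.66) and one of Scd2 (-0.12). In another of Acly APAP lay above control (0.15), and the other of Scd2 kept the order. APAP lay below AMAP in all of these further probe sets. Srebf1, the transcription factor of this branch, was not low: it measured 10.03 in APAP, 10.14 in AMAP and 9.79 in control, with both treated arrays above control. Acss2, which makes acetyl-CoA from acetate, measured 7.08 in APAP, 7.43 in AMAP and 7.07 in control, and Scd1, another desaturase, 10.62 in APAP, 10.63 in AMAP and 10.68 in control. The probe sets of Scd1 disagreed, since its further one lay at -1.64 for APAP against control and -1.06 for APAP against AMAP at 24 h.

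**Figure D1:**
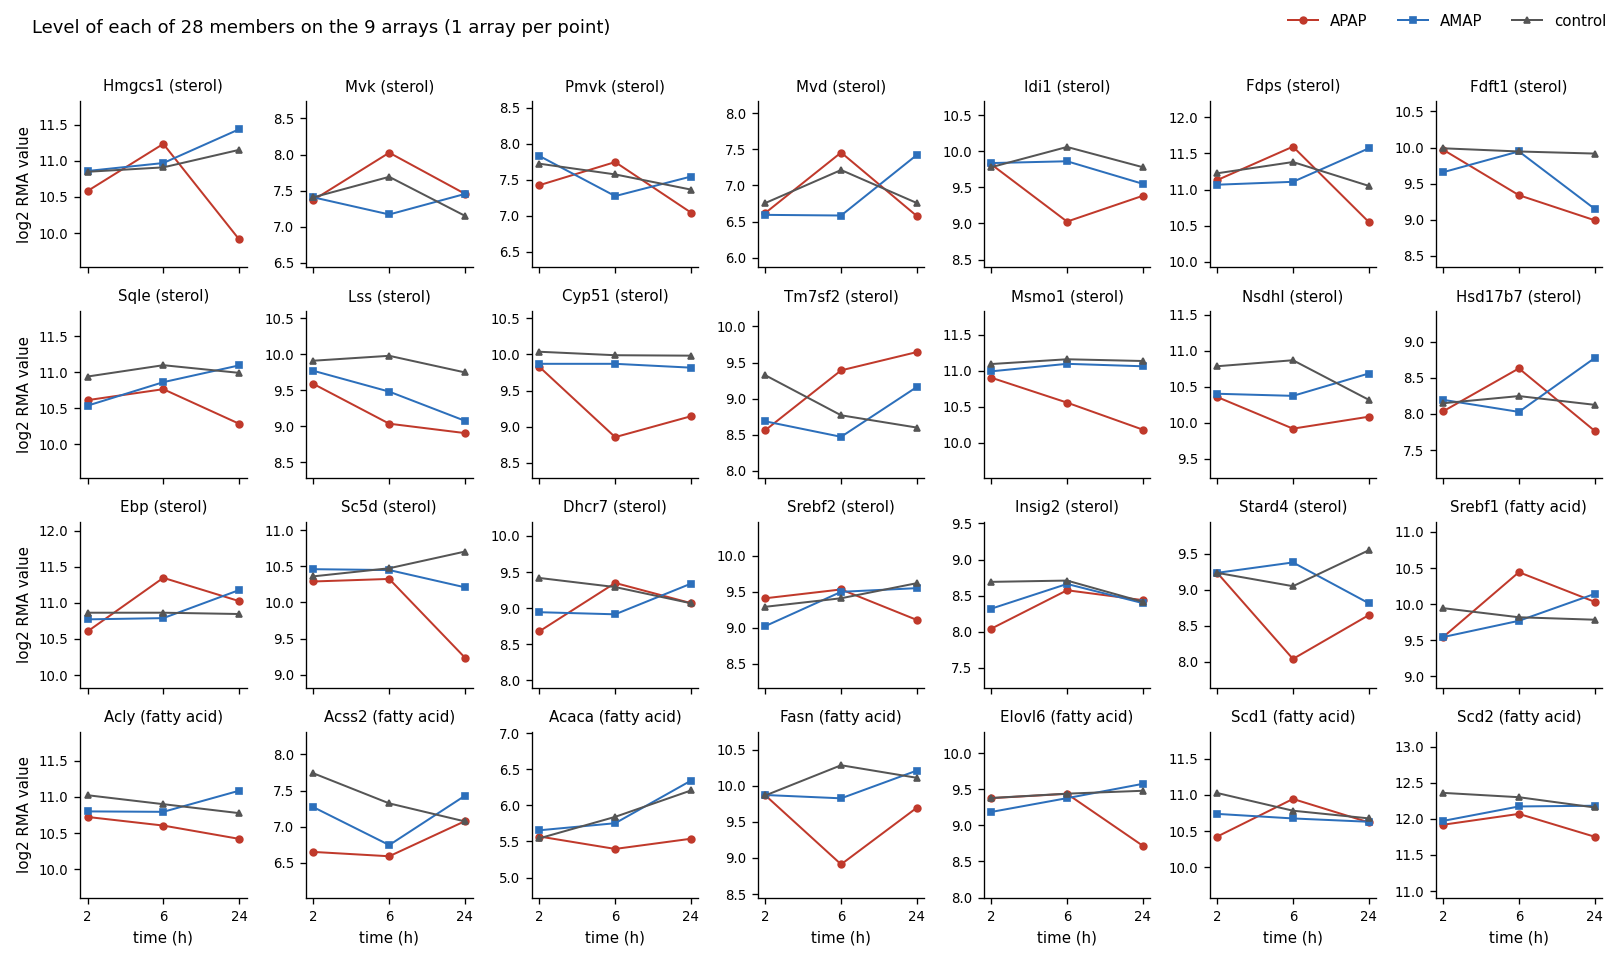
Log2 RMA value (vertical axes, placed per gene but all of the same span) of the 28 members at 2, 6 and 24 h (horizontal axes, times drawn evenly spaced), with 1 array per point, for APAP (circles), AMAP (squares) and control (triangles). APAP at 24 h is the lowest point for 13 of the 28 members, among them Hmgcs1, Fdps, Msmo1, Sc5d and Elovl6, and the highest for Tm7sf2.

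AMAP at the same dose and time did not share the low values of the branches as a whole. At 24 h its sterol members had a median of 0.14 against control and its fatty acid members one of 0.12, beside 0.10 for all expressed genes. At least 1.5-fold lower in AMAP were 3 sterol members (Fdft1, Lss and Stard4, where 7.94% of all expressed genes were), and 2 were at least 1.5-fold higher (Mvd and Hsd17b7, 7.88%), with 0 fatty acid members in either direction. On the probe sets used, Fdft1, Lss, Stard4 and Idi1 were lower on the 3 arrays with a low dap ratio than on any other array. So was Cyp51, narrowly, with 9.82 in AMAP at 24 h against 9.83 in APAP at 2 h. The part of the dap ratio in these values was not tested. AMAP at 24 h was below all 3 control arrays for 8 sterol members and 1 fatty acid member (28.7% of all expressed genes), and it was the lowest of the 9 arrays for 0 of the 28 (9.58%). Set directly against AMAP at 24 h, 17 of 20 sterol and 8 of 8 fatty acid members were lower in APAP (47.3% of all expressed genes), 9 and 3 of them by at least 1.5-fold (6.66%), and 0 of 28 were at least 1.5-fold higher (7.87%). The medians of this difference were -0.47 in both branches, beside 0.02 for all expressed genes. The largest gaps were those of Hmgcs1 (-1.52), Fdps (-1.02) and Hsd17b7 (-1.01). The comparisons with control share the control array, and both treated arrays of this time had a low dap ratio, whose part in the differences from control was not tested. Hepatocyte markers differed between the compounds at this time, with 7 of 10 above 0 for APAP against AMAP (median 0.51), led by Fgb (1.51), Ahsg (1.32) and Apoa1 (1.30), while against control 5 of 10 lay above 0 in APAP (median 0.07) and 4 of 10 in AMAP (-0.13). Their part in the result was not tested either.

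**Figure D2:**
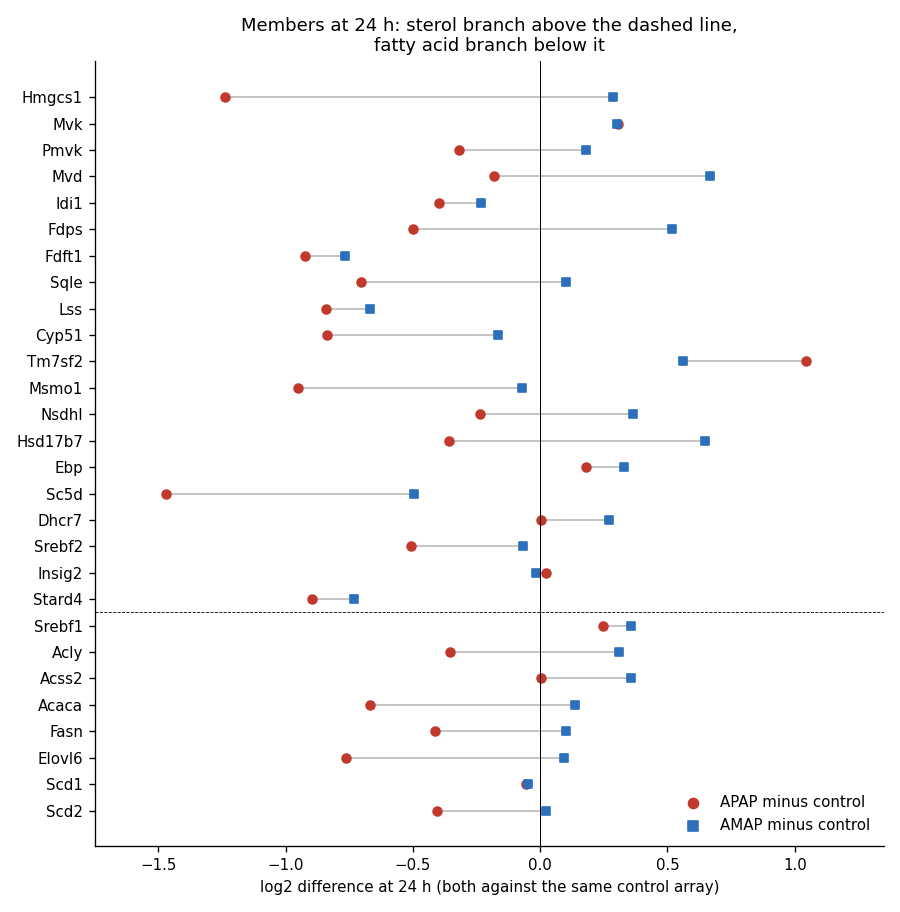
Log2 difference at 24 h (horizontal axis) of each member, sterol branch above the dashed line and fatty acid branch below it, for APAP minus control (circles) and AMAP minus control (squares), each a difference of 2 arrays with the same control array in both. The circle lies left of the square for 25 of the 28 members and right of it for Tm7sf2, Insig2 and, by 0.003, Mvk.

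Since many members were lower together in APAP at 24 h, the proximal promoters of the 2 members with the widest such gaps to control, of Msmo1 and of the oppositely placed Tm7sf2 are shown. Hmgcs1 was taken by rule, as a low member with a match to the sterol regulatory element TCACNCCAC, and the other 3 were chosen after their values were seen. The sequences are RefSeq's on GRCm38.p6, written 5′ to 3′ along the gene and ending at the base before the annotated start: Hmgcs1 chr13:119690151-119690350 on the plus strand, and Sc5d chr9:42264301-42264400, Msmo1 chr8:64733579-64733748 and Tm7sf2 chr19:6067851-6067950 on the minus strand. Capitals mark TCACNCCAC and CCAAT, the box bound by the factor NF-Y, on either strand, so a CCAAT on the opposite strand reads ATTGG.
Hmgcs1: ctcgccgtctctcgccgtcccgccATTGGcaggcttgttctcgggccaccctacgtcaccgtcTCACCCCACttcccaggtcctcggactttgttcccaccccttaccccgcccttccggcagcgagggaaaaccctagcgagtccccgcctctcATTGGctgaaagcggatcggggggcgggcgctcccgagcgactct
Sc5d: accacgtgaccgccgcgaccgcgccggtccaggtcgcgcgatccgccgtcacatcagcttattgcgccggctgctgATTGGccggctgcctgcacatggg
Msmo1: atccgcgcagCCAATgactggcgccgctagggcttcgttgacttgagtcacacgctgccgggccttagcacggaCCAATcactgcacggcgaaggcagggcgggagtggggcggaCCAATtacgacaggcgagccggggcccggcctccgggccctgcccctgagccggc
Tm7sf2: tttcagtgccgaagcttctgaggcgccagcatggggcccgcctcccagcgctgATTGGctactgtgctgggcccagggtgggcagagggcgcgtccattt
Hmgcs1 held the sterol element once, at position -137 from the start, between ATTGG matches at -176 and -45 that it did not overlap. Promoters (250 bases before to 50 after the start) were given for 24 of the 30 genes. The element was in 1 of these 24, beside 1.44% of 27025 genes with a promoter in the table. CCAAT was in 21 of the 24, 17 of 18 in the sterol branch and 4 of 6 in the fatty acid branch, beside 41.1% of all genes. Tm7sf2, which measured higher in APAP, held 1 such match, as did Sc5d, which measured lower. A match is a description of the letters in the window.

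Other probe sets of the same genes gave a second reading for 16 members. Of their 20 further expressed probe sets, 16 lay below 0 for APAP against control at 24 h (median -0.64), 12 for AMAP against control (median -0.10) and 18 for APAP against AMAP (median -0.68). Of the 10 members at least 1.5-fold lower and the 1 higher in APAP against control at 24 h, 7 had such a probe set, and for 6 of these it differed by at least 0.5 in the same direction. Sc5d was the exception, with a further probe set at -0.15. The 3 further probe sets of Hmgcs1 differed by -2.57, -1.37 and -2.81 in APAP against control, each a wider gap than the -1.24 of the probe set used. Those 3 gave -1.29, 0.25 and -1.48 for AMAP against control, where the probe set used gave 0.29. The AMAP level of Hmgcs1 relative to control thus has no settled direction. The probe sets at -2.57 and -2.81 were less steady in control, with 10.74, 9.88 and 10.87, and 9.92, 8.83 and 10.02, at 2, 6 and 24 h. The controls of the probe set used spanned 0.30. Both were also lower on the 3 arrays with a low dap ratio than on any other array, whose part was not tested. Against AMAP, APAP was lower at 24 h in all 4 probe sets of Hmgcs1, with differences between -1.28 and -1.62. Idi1, called at neither compound on the probe set used, differed by -2.57 in APAP and -0.74 in AMAP on its further probe set. For AMAP against control, 1 of the 5 members counted at 24 h was followed by a further probe set, and that of Lss lay at 0.21 where the probe set used gave -0.67.

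**Figure D3:**
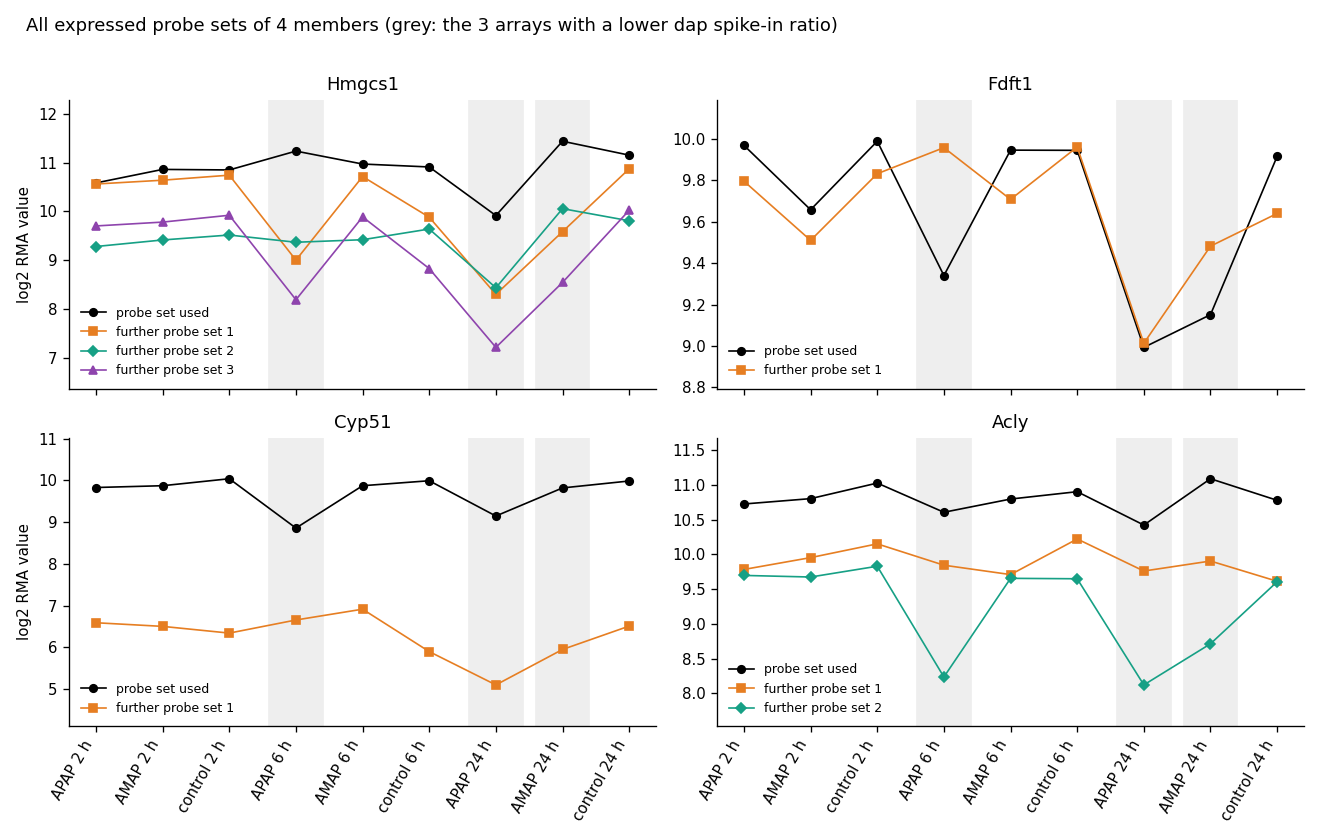
Log2 RMA value (vertical axes) on each of the 9 arrays (horizontal axes) of the expressed probe sets of Hmgcs1, Fdft1, Cyp51 and Acly, with the probe set used in black and the grey bands over the 3 arrays with a lower dap ratio. In Hmgcs1 all 4 probe sets are lowest in APAP at 24 h, while in AMAP at 24 h 2 of them are low and the other 2 are high.

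Both compounds against control at 2 h. At 2 h most members measured slightly lower with either compound than in control. Both comparisons use the same control array at 2 h, so their agreement is not independent. Among all arrays, control at 2 h was the highest for 6 members and the lowest for 0. Control at 6 h was the highest for 7 and the lowest for 0. The part of the shared control array in the low values was not tested. In APAP 17 of 20 sterol and 6 of 8 fatty acid members lay below 0 (52% of all expressed genes), and in AMAP 14 and 6 did (50.9%). The medians were -0.20 and -0.35 in APAP and -0.15 and -0.26 in AMAP, sterol branch first, beside -0.01 for all expressed genes in each. At least 1.5-fold lower in APAP were 3 sterol and 2 fatty acid members (6.03% of all expressed genes), and 0 were that much higher (3.76%). In AMAP Tm7sf2 was the single member past that fold (2.64% lower and 3.45% higher among all expressed genes).

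Acss2 had the widest gap at this time. It measured 6.65, 6.59 and 7.08 in APAP at 2, 6 and 24 h, against 7.27, 6.75 and 7.43 in AMAP and 7.74, 7.32 and 7.07 in control. The control array at 2 h was the highest of the 9, and APAP lay 2.13-fold below it and 1.54-fold below AMAP, the single member at least 1.5-fold apart between the compounds at 2 h (4.99% of all expressed genes lower in APAP and 2.55% higher). Dhcr7 measured 8.68 in APAP, 8.95 in AMAP and 9.42 in control at 2 h, and Insig2 8.04 in APAP, 8.32 in AMAP and 8.69 in control: in both, AMAP lay between APAP and control. Scd1 kept the same order, with 10.42 in APAP, 10.74 in AMAP and 11.03 in control. Scd2 measured 11.92 in APAP, 11.97 in AMAP and 12.36 in control, Sqle 10.61 in APAP, 10.54 in AMAP and 10.94 in control and Nsdhl 10.36 in APAP, 10.40 in AMAP and 10.78 in control, and in these 3 genes the treated arrays were within 0.08 of each other and 0.33 to 0.44 below control.

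The low values at 2 h recurred on other probe sets of the same arrays. Of 20 further probe sets, 15 lay below 0 in APAP (median -0.20) and 16 in AMAP (-0.15). Of the 2 counted members with a further probe set, Insig2 and Scd1, neither had one that differed by 0.5, though both lay at -0.28 in APAP. Stard4 had exactly the same value, 9.23, in all 3 arrays at 2 h, and its second probe set measured 8.81 in APAP, 8.73 in AMAP and 9.11 in control. Equal values on at least 2 arrays occur in 46.1% of the probe sets. Of 4 measured cholangiocyte markers, the keratins Krt19 (2.11 in APAP and 1.08 in AMAP) and Krt7 (1.44 and 0.37) were above control at the same time. Sox9 (0.06 and -0.02) was near control, and Epcam (0.02 and 0.56) had a mean below the filter on low values. The list had 4 of 4 above 0 in APAP (median 0.75) and 3 of 4 in AMAP (0.47). Krt8 (0.90 and 0.56) and Krt18 (0.92 and 0.60), keratins of the hepatocyte list, were above control too. In each of these keratins the control array at 2 h was the lowest of the 9. Krt18 measured 11.29 there, against 11.89 in AMAP at 2 h and 11.92 and 11.91 in control at 6 and 24 h. Krt8 measured 11.39 there, against 11.95 in AMAP at 2 h and 11.99 and 11.88 in the later controls. Of the hepatocyte markers, 7 of 10 lay below control with each compound at 2 h (medians -0.30 in APAP and -0.34 in AMAP), among them Alb, at -0.26 and -0.19. The part of these in the result was not tested.

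APAP at 6 h against control and AMAP. At 6 h APAP separated the sterol members, while the fatty acid median lay below control. In the sterol branch 10 members lay below control and 10 above it, with a median of -0.04 (0.04 under median centring), beside -0.05 for all expressed genes, and 6 of 8 fatty acid members lay below control, with a median of -0.26. Of all expressed genes 54.4% lay below 0. Among the fatty acid members below control, Elovl6 lay at -0.001, and above 0 under median centring (0.08) and cyclic loess (0.065). The fatty acid median was -0.15 under loess. At least 1.5-fold lower were 7 sterol and 2 fatty acid members (16.1% of all expressed genes), and 1 of each was at least 1.5-fold higher (7.76%). The share of genes at least 1.5-fold lower was the highest of the 3 times for APAP against control, and the APAP array at 6 h is among the 3 with a low dap ratio.

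The 7 low sterol members at 6 h were Idi1, Fdft1, Lss, Cyp51, Msmo1, Nsdhl and the carrier Stard4, while Sqle lay at -0.33. Cyp51 was 2.20-fold below control, at 8.86 in APAP against 9.99 in control, and Idi1 2.05-fold, at 9.03 in APAP against 10.06 in control. Stard4 measured 8.04 in APAP against 9.05 in control (2.01-fold lower), and its second probe set lay at -0.57. Nsdhl measured 9.92 in APAP against 10.87 in control, Lss 9.04 in APAP against 9.98 in control, Fdft1 9.34 in APAP against 9.95 in control and Msmo1 10.56 in APAP against 11.16 in control. Of the fatty acid genes, Fasn was 2.59-fold lower, at 8.91 in APAP against 10.28 in control, the widest gap of any member at this time, and Acss2 1.66-fold lower. In AMAP at 6 h Fasn was also below control, by -0.46, and Acss2 by -0.58.

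The early mevalonate enzymes stood on the other side at 6 h. In APAP 5 of the 6 were above control, Mvk by 0.33, Hmgcs1 by 0.33, Mvd by 0.24, Fdps by 0.21 and Pmvk by 0.17, all less than 1.5-fold. For Hmgcs1 the further probe sets disagreed with this, at -0.88, -0.27 and -0.64. Srebf1 (0.62) and Tm7sf2 (0.62) were the 2 members at least 1.5-fold higher, and Ebp lay at 0.48. Of the 5 counted members with a further probe set, 2 were followed by it, and the further probe set of Cyp51 went the opposite way, at 0.76.

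AMAP at 6 h was closer to control. Its sterol median was -0.21 and its fatty acid median -0.11, beside -0.10 for all expressed genes, and 1 member, Mvd, was at least 1.5-fold lower (4.48% of all expressed genes) and 0 higher (4.07%). Between the compounds at 6 h, 4 sterol members and 1 fatty acid member were at least 1.5-fold lower in APAP (17.2% of all expressed genes), and the same numbers were higher (16.6%). Those lower in APAP were Stard4 (-1.34), Cyp51 (-1.02), Idi1 (-0.84), Fdft1 (-0.61) and Fasn (-0.92). Those higher were Tm7sf2 (0.92), Mvd (0.87), Mvk (0.86), Hsd17b7 (0.60) and Srebf1 (0.67). Mvd and Hsd17b7 lay on the other side of 0 at 24 h, and the second probe set of each did so too, at 0.60 and 0.62 at 6 h and -0.80 and -0.95 at 24 h. These shares are close to those of all expressed genes, so the count at 6 h does not set the members apart.

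**Figure D4:**
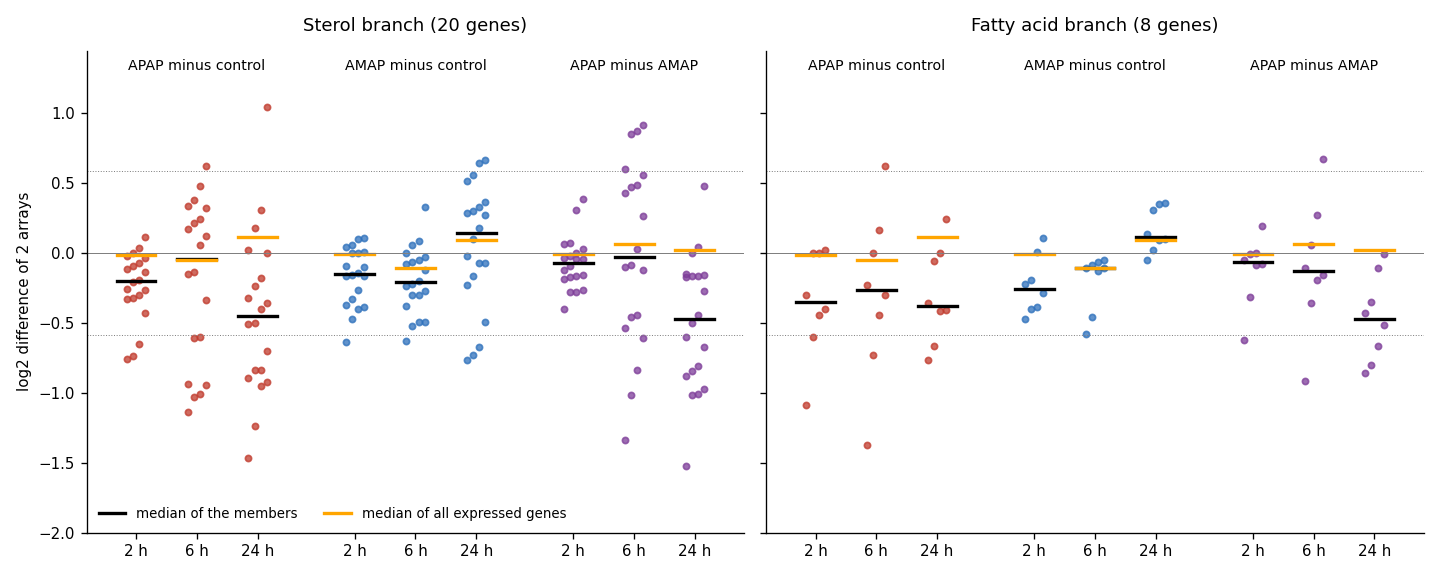
Log2 difference of 2 arrays (vertical axis) for each member, by comparison and time, with the median of the members (black bar) and of all 6700 expressed genes (orange bar), and dotted lines at 1.5-fold. In APAP minus AMAP at 24 h the black bars lie at -0.47 in both branches and the orange bar at 0.02, while at 6 h the points spread to both sides of 0.

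The control arrays at different times give a scale for a difference without replicates, though they differ in time in culture and are not replicates. From array to array the sterol branch moved by medians of 0.07 (6 h minus 2 h), -0.04 (24 h minus 2 h) and -0.15 (24 h minus 6 h). Tm7sf2 was the single sterol member past 1.5-fold among control arrays, lower at 24 h than at 2 h, and in the fatty acid branch Acss2 was lower and Acaca higher in that comparison. Among all expressed genes 1.33% were at least 1.5-fold lower and 2.58% higher at 24 h than at 2 h, 2.61% and 3.46% at 6 h than at 2 h, and 5.52% and 3.54% at 24 h than at 6 h. The sterol median of -0.45 in APAP against control at 24 h was farther from 0 than any of these 3.

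Differences shared by the 3 times. Only a difference common to 2, 6 and 24 h has a residual spread in this design, and it was tested with limma over 6700 genes with time as a factor. Averaged over the times, APAP against control had a sterol median of -0.32 and a fatty acid median of -0.34, beside 0.01 for all expressed genes. No member passed: in each of the 3 contrasts 0 of 6700 genes (0%) reached limma's adjusted threshold of 0.05. Unadjusted, 514 genes lay under 0.05 in limma for APAP against control, 30 for AMAP against control and 285 for APAP against AMAP. At that unadjusted level 4 sterol and 2 fatty acid members were lower in APAP than in control (4.7% of all expressed genes), and 0 were higher (2.97%).

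Those 6 members were lower in APAP than in control by 0.54 to 0.73 log2, with wide intervals. Lss averaged 9.18 ± 0.36 in APAP and 9.88 ± 0.12 in control (SD over 3 times), a difference of -0.70 (95% interval -1.12 to -0.28, limma adjusted p = 0.633), and it was lower in 3 of 3 pairs of arrays. Cyp51 averaged 9.28 ± 0.50 in APAP and 10.00 ± 0.03 in control, a difference of -0.73 (-1.22 to -0.24). Msmo1 averaged 10.55 ± 0.36 in APAP and 11.13 ± 0.03 in control, a difference of -0.58 (-1.03 to -0.13). In both genes the control arrays were nearly level over time and the APAP arrays were not. Nsdhl differed by -0.54, Acss2 by -0.61 and Fasn by -0.60, each with an adjusted p of 0.633 in limma. Leaving out the 3 arrays with a low dap ratio gave a sterol median of -0.23. That setting keeps a single APAP array, at 2 h, so it cannot tell the dap ratio from the later times. At an unadjusted p under 0.05 in limma, 7 sterol members were lower in APAP without the 2 h arrays, 3 without the 6 h arrays and 2 without the 24 h arrays. Of all 6700 genes, 351, 227 and 260 were lower at that level in these settings. Without the 2 h arrays 1 sterol member was higher, beside 155 of all genes. The 2 fatty acid members became 1 without the 2 h arrays, 0 without the 6 h arrays and 1 without the 24 h arrays. Over the 11 alternative settings the sterol count ran from 2 to 9, the 9 under a trended prior (342 of all genes). Over the same settings the difference of Lss ran from -0.89 to -0.41, that of Cyp51 from -0.99 to -0.20, of Msmo1 from -0.78 to -0.18, of Nsdhl from -0.69 to -0.33, of Acss2 from -1.12 to -0.36 and of Fasn from -0.89 to -0.115. Without the 3 low dap arrays, where APAP is its 2 h array alone, Lss, Cyp51, Msmo1 and Fasn had the smallest of these differences. Acss2 had its largest there. At 2 h Fasn lay at 0.001 and Acss2 at -1.09 for APAP against control.

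For AMAP against control the sterol median was -0.12 and the fatty acid median -0.09, and Lss was the single member at an unadjusted p under 0.05, with -0.44 (interval -0.85 to -0.02, limma adjusted p = 1), where 0.134% of all expressed genes were lower. For APAP against AMAP, Cyp51 differed by -0.58 (-1.07 to -0.09) and Msmo1 by -0.50 (-0.95 to -0.05), each with a limma adjusted p of 0.869, where 2.7% of all expressed genes were lower. Without the 3 low dap arrays, where APAP is its 2 h array alone, they differed by -0.055 and -0.098. The AMAP difference of Lss was -0.073 under the mean of all probe sets. The other intervals between the compounds included 0 and typically reached 0.50 log2 to either side in the sterol branch, so a difference of that size between APAP and AMAP could not be seen in them. Hmgcs1, widest at 24 h, had a shared difference between the compounds of -0.51 (-1.22 to 0.20), and its 6 h values on that probe set lay the other way.

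**Figure D5:**
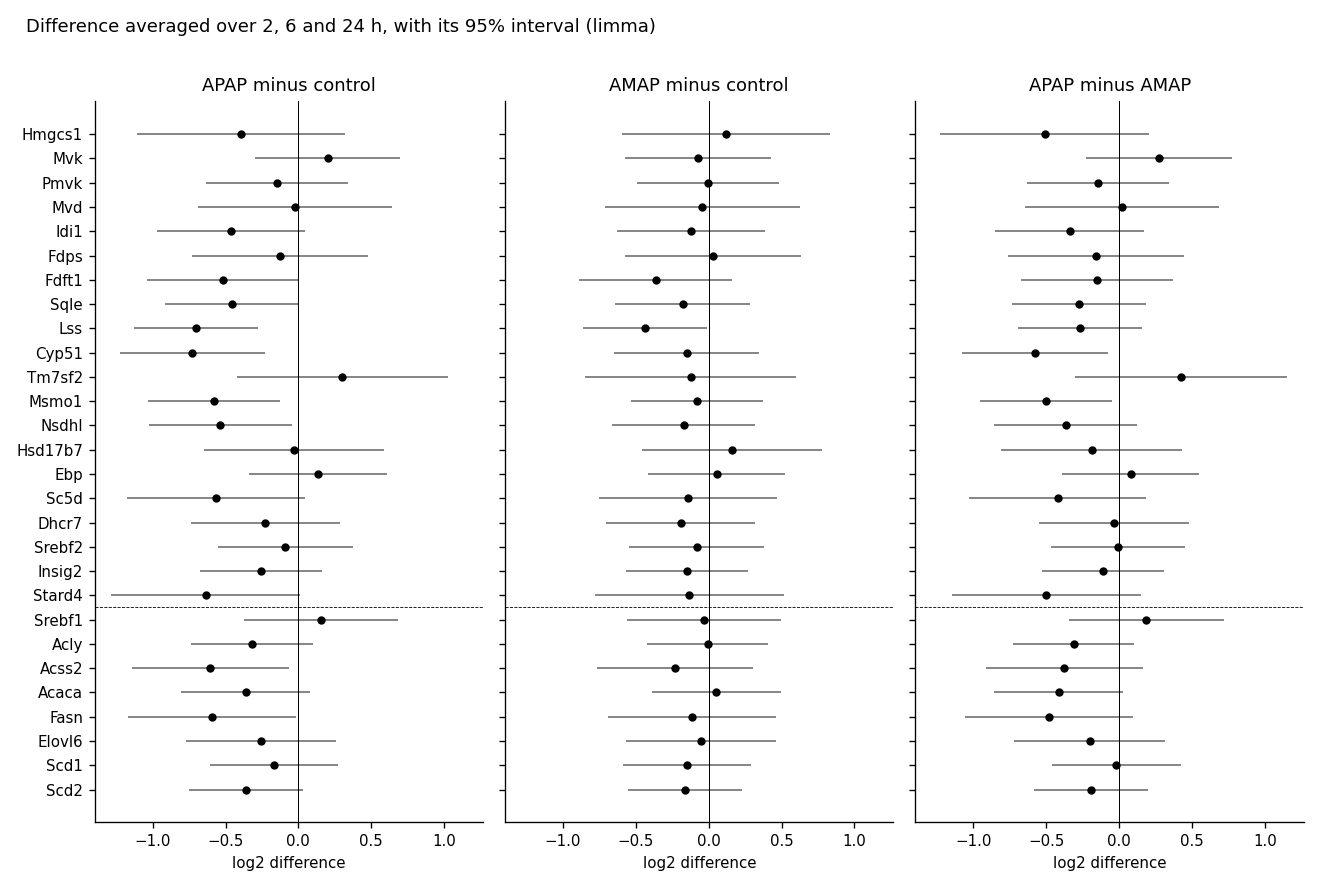
Difference averaged over 2, 6 and 24 h (horizontal axes, log2) for each member in the 3 contrasts of the limma fit, with bars for the 95% interval and the sterol branch above the dashed line. The intervals of Lss, Cyp51, Msmo1, Nsdhl, Acss2 and Fasn lie below 0 for APAP minus control, and 0 of 28 members pass after adjustment over 6700 genes.

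Neighbouring genes of lipid metabolism were read beside the members. Of 11 further genes listed for sterol sensing and trafficking, 4 were measured, and all 4 were expressed. Their median in APAP against control at 24 h was 0.09, close to the 0.12 of all expressed genes. Of these 4, 0 lay below 0, where 38.6% of all expressed genes did. Npc1, which exports cholesterol from lysosomes, measured 6.81 in APAP, 5.55 in AMAP and 6.37 in control at 24 h and was the gene of that list with the widest difference between the compounds, higher in APAP by 1.26. Npc2, its soluble partner, and Scap, the escort of the SREBP factors, were also higher in APAP than in AMAP at 24 h, by 0.35 and 0.43. In all, 0 of 4 of these genes lay below 0 for APAP against AMAP at 24 h, where 47.3% of all expressed genes and most synthesis genes did. The isoprenoid side branch stayed near 0 against control in APAP at 24 h. Its median over 4 genes was 0.08, beside 0.12 for all expressed genes. Nus1 and Dhdds, which make dolichol chains, lay at 0.07 and -0.09, and Ggps1, which makes geranylgeranyl diphosphate, at 0.08. At 6 h Nus1 was higher in AMAP than in control, by 0.64, and lower in APAP than in AMAP, by -0.78.

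Of 3 expressed genes of sterol efflux that liver X receptors drive, Abca1 and Lpcat3 were low in APAP at 6 h and Abcg1 was not. Abca1, the cholesterol exporter, measured 7.27, 6.86 and 7.94 in APAP at 2, 6 and 24 h, against 8.20, 8.12 and 7.95 in AMAP and 8.26, 7.82 and 8.17 in control. APAP was the low array at 2 h and at 6 h, and at 24 h the 3 arrays lay within 0.24. Averaged over the times it differed by -0.73 from control (interval -1.27 to -0.19, limma adjusted p = 0.633) and by -0.73 from AMAP (-1.28 to -0.19, adjusted p = 0.869). Lpcat3, which remodels phospholipids, differed from control in APAP by -0.40 at 2 h, -0.86 at 6 h and -0.08 at 24 h. Abcg1, another exporter, differed by 0.31, -0.04 and 0.12 at these times. In the limma fit 2 of the 3 efflux genes were lower in APAP than in control at an unadjusted p under 0.05, beside 4.7% of all expressed genes, and 0 of 3 after adjustment.

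Further genes of fatty acid and triglyceride synthesis were also low at 2 h in APAP, where 11 of 12 lay below 0 with a median of -0.44 (52% of all expressed genes lay below 0) and 4 of 12 were at least 1.5-fold lower (6.03%). In AMAP at 2 h 9 of the 12 lay below 0 (50.9%), with a median of -0.19, and 1 was at least 1.5-fold lower (2.64%). These comparisons share the control array at 2 h, whose part was not tested. Mlxipl, the carbohydrate response factor, measured 6.88 in APAP, 7.81 in AMAP and 8.31 in control at 2 h, a difference of -1.43 in APAP. Dgat2, which forms triglyceride, measured 6.89 in APAP, 8.06 in AMAP and 8.31 in control, and at 24 h it was above control in APAP, by 0.71. Gpam, the acyltransferase that starts glycerolipid synthesis, was lowest in AMAP at 2 h, with 9.52 in APAP, 9.27 in AMAP and 10.28 in control. At 24 h the medians of the 12 genes against control were -0.18 in APAP and 0.06 in AMAP. Over the times 1 of the 12 was lower in APAP than in control at an unadjusted p under 0.05 in limma (Fads1, a desaturase named after its value was seen, at -0.44), beside 4.7% of all expressed genes, and 0 of 12 passed after adjustment.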

How the data were processed

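Total RNA from TAMH cells was measured on 9 arrays, 1 per treatment and time. The authors deposited log2 values for each probe set and, per the submitters' processing notes, made them by RMA with Affymetrix Expression Console. Whether the 9 arrays were normalized together was not given in the sources used here. Since RMA gives every array the same distribution of probe intensities, a shift in total RNA cannot be seen. With 9 arrays, their number sets how precise a value can be. The table held 22690 probe sets, 64 of them controls, which were left out. The platform annotation gives 1 symbol for 20380, several for 691 and none for 1555. Groups came from the sample titles.

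Same-time differences of 2 arrays were computed for expressed genes and carry no test. Differences shared by the 3 times were tested with limma 3.58.1 in R 4.3.3 (lmFit and eBayes, treatment plus time as factors, 4 residual degrees of freedom, Benjamini-Hochberg adjustment over 6700 genes, threshold 0.05), a script first tested on simulated data. Nothing in the labels says that arrays came from separate cultures beyond the dishes, so p-values measure the spread between these arrays. Promoters were RefSeq's (GRCm38.p6). Alternatives were median centring, cyclic loess, the mean of all probe sets, a 2-fold call, no filter, no time block, a trended prior, only the 6 arrays compared, and leaving out a time or the 3 arrays with a low dap ratio. The members, gene lists and tests were chosen with earlier results of these data known. Every member is named, and from each other list up to 3 expressed genes with the largest same-time difference. The cell-type marker lists were hepatocyte, macrophage, stellate cell and fibroblast, endothelial and cholangiocyte.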

Additional observations from a re-analysis of the deposited data

Results flagged for a closer look

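For 3 members a same-time difference at least 1.5-fold one way at an earlier time was at least 1.5-fold the other way at a later one. Each value is a difference between 2 arrays, so the change between times was not tested. The share of all expressed genes that change side in this way is not given, so the count does not set these members apart. The dap ratio was low in APAP at 6 and 24 h and in AMAP at 24 h. Each change below therefore runs between pairs of arrays that differ in it, and its part was not tested. Mvd lay at -0.63 for AMAP against control at 6 h and at 0.67 at 24 h, a change of 1.30, and for APAP against AMAP it lay at 0.87 at 6 h and -0.85 at 24 h, a change of -1.72. Tm7sf2 lay at -0.76 for APAP against control at 2 h, at 0.62 at 6 h (a change of 1.38) and at 1.05 at 24 h (a change of 1.80 from 2 h). Hsd17b7 lay at 0.60 for APAP against AMAP at 6 h and at -1.01 at 24 h, a change of -1.61. The second probe sets of Mvd and Hsd17b7 changed side in the APAP to AMAP comparison as well, and Tm7sf2 has a single probe set.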

How the results depend on the processing

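In the limma fit 0 genes passed in each of the 3 contrasts under all 11 alternative settings. The genes at an unadjusted p under 0.05 ranged from 374 to 902 for APAP against control, 6 to 230 for AMAP against control and 207 to 606 for APAP against AMAP, with the highest count without the 3 arrays of low dap ratio for AMAP against control and without a filter (12393 genes tested) for the other 2 contrasts; the lowest counts came without the 24 h, 2 h and 6 h arrays, in the order of the contrasts. The branch medians kept their sign under centring, loess and the mean of probe sets, except the sterol medians at 6 h for APAP against control, 0.04 under centring and 0.03 under loess, and for APAP against AMAP, 0.01 under loess. At 2-fold in place of 1.5-fold, the sterol members counted for APAP against control were 0, 3 and 3 at 2, 6 and 24 h, for AMAP against control 0, 0 and 0, and for APAP against AMAP 2 at 6 h and 3 at 24 h. The fatty acid members were then 1, 1 and 0 for APAP against control, and 0, 0 and 0 for APAP against AMAP. Of all expressed genes, 1.85%, 6.15% and 6.61% differed at least 2-fold for APAP against control at these times, 1.61%, 1.1% and 3.16% for AMAP against control and 1.46%, 10.5% and 2.88% for APAP against AMAP. The sterol count for AMAP against control at 6 h was 0 under median centring, cyclic loess and the mean of all probe sets, and that at 24 h was 3 under loess and 1 under the mean of probe sets. Under the mean of probe sets the sterol median was -0.29 for APAP against control at 24 h and -0.11 for AMAP against control at 6 h. The fatty acid count for APAP against control at 2 h was 1 under centring and under the mean of probe sets, and that for APAP against AMAP at 2 h was 0 under the mean of probe sets. Fatty acid medians for APAP against control were -0.18 (centring) and -0.15 (loess) at 6 h, and -0.48 (centring), -0.28 (loess) and -0.46 (mean of probe sets) at 24 h. For AMAP against control they were -0.028 at 6 h (centring) and 0.039 at 24 h (mean of probe sets), and for APAP against AMAP at 6 h -0.023 (loess). Of 252 same-time differences of single members, 31 changed sign under the mean of probe sets, 19 under centring and 16 under loess. The 1 of these that was at least 1.5-fold was Fdft1 in APAP against AMAP at 6 h, 0.009 under the mean of probe sets. Among the smaller ones, the mean of probe sets gave for Hmgcs1 -0.37 in APAP against control at 6 h, -0.80 in APAP against AMAP at 6 h and -0.56 in AMAP against control at 24 h, and for AMAP against control at 6 h 0.50 for Idi1, 0.55 for Insig2 and 0.065 for Lss. The cause of these shifts was not tested. Time pairs the arrays in the limma fit; without it the genes at an unadjusted p under 0.05 numbered 511, 20 and 296. By replicate number, no paired analysis was possible because each group has a single array.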
